A study of Mus musculus with 16 samples.

Results

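The cyclic nucleotide enzyme and protein kinase A (PKA) genes described here are 43 genes of the mouse retina that make, degrade or respond to the second messengers cAMP and cGMP. The members were taken from a fixed list of symbols, and all 43 symbols were found among the 25905 gene symbols of the table of all genes. The list holds 18 phosphodiesterase genes, 8 adenylyl cyclase genes, 3 subunit genes of soluble guanylyl cyclase, 2 catalytic and 4 regulatory subunit genes of PKA, 2 genes of cGMP-dependent protein kinase (PKG), 2 genes of the cAMP-activated exchange factors known as EPAC, and 4 genes of the CREB transcription factor family and its coactivator. The photoreceptor phosphodiesterase PDE6 and the adenylyl cyclase gene Adcy1 are outside the list.

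Adenylyl cyclases make cAMP under the control of G proteins, calcium and calmodulin, and soluble guanylyl cyclase makes cGMP when nitric oxide binds it. Phosphodiesterases break down one or both messengers, and each family differs in its substrate and in what switches it on. Cyclic AMP frees the catalytic subunits of PKA from its regulatory subunits, and the kinase then phosphorylates CREB, which acts at a DNA motif known as the cAMP response element (CRE). In the retina cGMP holds open the cation channel of photoreceptors, and cAMP, which varies between light and dark, sets the coupling of neurons through gap junctions.

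RNA sequencing was performed on retinas of 16 male wild type C57BL/6 mice. The labels give an age of 10 weeks, which in the methods of the study is the age of the mice that were flown, and the retinas were taken after the return to Earth, when the mice were older. A group of 8 mice lived on the International Space Station (spaceflight) and a group of 8 mice (ground control) was kept in matching cages that did not leave the ground. The columns of counts per library carry laboratory codes that match no mouse, so no library was assigned to a group and no difference between spaceflight and ground control was tested here. Each value below is the authors' mean normalized count over all 16 libraries, that is, the mean of counts divided by the size factor of each library, with no SD, and the number of libraries behind it is the same for every gene. Fewer cells of one type and less RNA per cell cannot be told apart in whole retina.

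The tissue label was checked against marker genes. Of the rod markers, Nrl had 88.9, Pde6b 13374 and Sag 29757 mean normalized counts. Cone markers ran from 941 to 2800 and bipolar cell markers from 675 to 4239 mean normalized counts. The 3 listed amacrine markers ran from 1725 to 2415. Other retinal lists reached lower, at 47.7 to 505 for horizontal cells, 5.53 to 1730 for ganglion cells and 1.39 to 17455 for Müller glia. Endothelial markers ran from 0.446 to 99.5, and smooth muscle and pericyte markers from 0 to 78.6. Markers of tissues near the retina were also present, at 49.1 to 898 for lens and 2.72 to 386 for pigment epithelium. These ranges overlap those of retinal cells. The lens marker Cryaa (898) was above the bipolar marker Cabp5 (675), and Rgr of pigment epithelium (386) was above Nrl. Blood markers reached at most 10.7, muscle markers 8.94 and microglial markers 39.0, and their part in the levels of the cyclic nucleotide genes was not tested.

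The levels of the 43 genes separated by how many transcripts of the gene had been counted. The count table lists reads per RefSeq transcript. In it 27 of the 43 genes had 1 counted transcript, a curated one, while 16 genes had more than 1 counted transcript. The table holds 31616 counted features, whereas levels are given for 25905 gene symbols. How several transcripts were combined into the level of a gene is not given in the sources used here. The 27 genes with 1 counted transcript had levels of 1.96 to 2191 mean normalized counts (median 287), and 22 of them (81.5%) were at or above 100. The 16 genes with more than 1 counted transcript had levels of 0 to 89.4 (median 3.50), and none of the 16 reached 100. Of these 16 genes, 7 (43.8%) were under 1 and 3 were listed at 0, whereas no gene with 1 counted transcript was under 1.

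The same split was present over all genes. The 16959 genes with 1 counted curated transcript had a median of 52.2 mean normalized counts, with 42.9% of genes at or above 100 and 28.8% under 1. The 3166 genes with more than 1 counted transcript, at least 1 of them curated, had a median of 1.54. Of these genes 9.89% were at or above 100 and 45.3% under 1. The median was 1.58 for genes with 2 counted transcripts, 1.80 with 3, 1.33 with 4 and 0.645 with at least 5. A low level of a cyclic nucleotide gene with several counted transcripts is therefore given below as the level in this table, beside its number of counted transcripts.

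**Figure D1:**
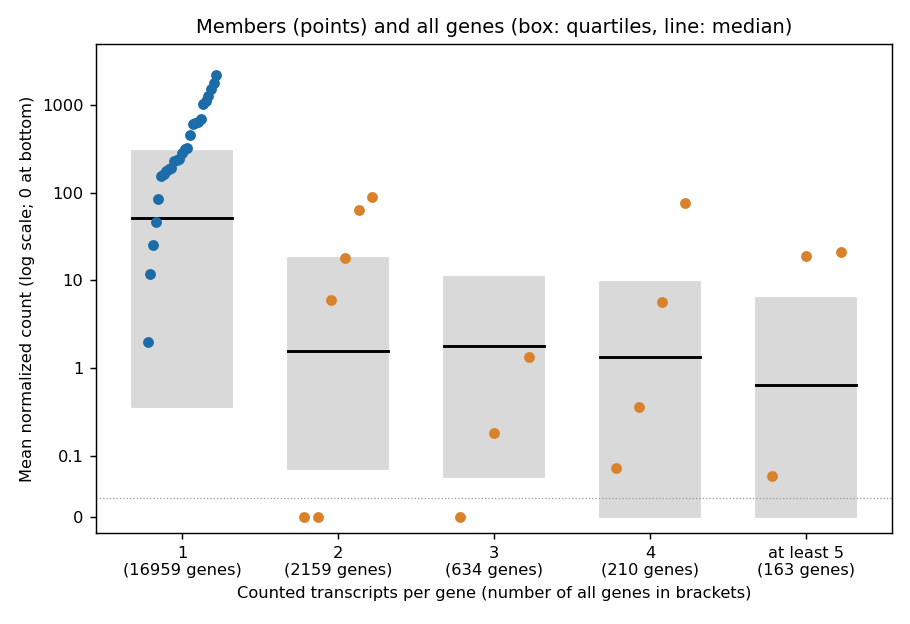
Mean normalized count of the 43 genes (points, in rising order within each column) by the number of counted transcripts of the gene, on a log scale with 0 drawn at the bottom under the dotted line. Grey boxes span the quartiles of all genes with that number of transcripts and black lines mark their medians, which fall from 52.2 at 1 transcript to 1.58 at 2; the members with 1 counted transcript (blue) reach 2191 and those with more (orange) stay at or below 89.4.

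The transcripts of these 16 genes share exons to differing extents. By default HTSeq, the counting tool, assigns a read that overlaps more than 1 feature to none of them, and the setting used was not given in the sources used here. For 13 of the 16 genes every counted transcript could be matched by its accession to a GENCODE model on the GRCm38 assembly, and the exon bases that lie in exactly 1 counted transcript were summed. Pde2a, Pde9a and Adcy3 had a transcript with no match and were left out. Gucy1b3 had 60 such bases of 3227 (1.86%), fewer than the read length of 75 bases, and was listed at 0. Rapgef3 had 240 of 4014 (5.98%) and was also listed at 0, and Adcy7 had 309 of 6218 (4.97%) with a level of 0.0722. Crem, with 11 counted transcripts, had 813 of 4391 (18.5%) and a level of 0.0579.

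The genes with the most such bases were higher, with exceptions in both directions. Pde1c had 9280 of 14962 bases in exactly 1 transcript (62.0%) and a level of 21.1, and Prkg1 had 4935 of 7376 (66.9%) and a level of 64.3. Pde4a, Pde4b, Pde1a and Pde7a had 2222 to 3210 such bases and levels of 5.65 to 18.8. Creb1 had 3345 of 8428 (39.7%) but a level of only 1.35. Pde8b had 990 of 4630 (21.4%) and the highest level of the 16 genes, 89.4, and Prkacb had 1478 of 5211 (28.4%) and 77.5. Over all matched genes with several counted transcripts the median level was 0 for the 196 genes with under 75 such bases, 0.782 for the 898 genes with 75 to 499, 3.11 for the 595 genes with 500 to 1499 and 20.6 for the 713 genes with 1500 or more. Pde8b and Prkacb were thus above the upper quartile of their class (20.3), while Crem was below the lower quartile of that class (0.234) and Creb1 below that of its own (1.61). Whether reads over shared exons were set aside was not tested.

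**Figure D2:**
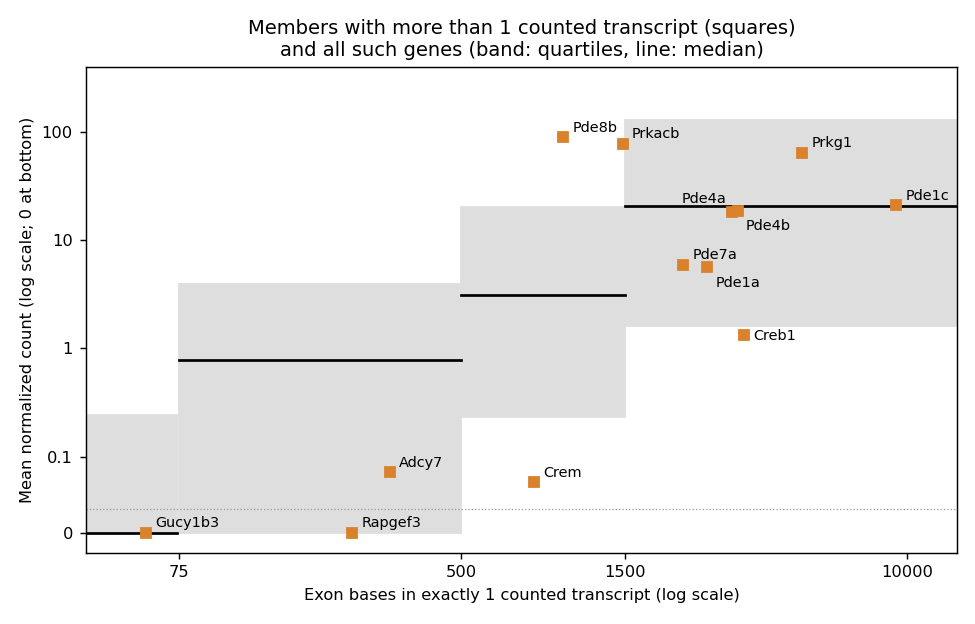
Mean normalized count (log scale, 0 at the bottom under the dotted line) of the 13 fully matched members with more than 1 counted transcript (squares) against the number of exon bases that lie in exactly 1 counted transcript (log scale). Grey bands span the quartiles of all such genes in 4 classes of bases and black lines mark the medians, 0, 0.782, 3.11 and 20.6 from left to right; Pde8b and Prkacb lie above the band of their class.

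Mean normalized counts by role are given first without regard to transcript length, so the order of these values, and the ranks among all genes, are orders of counts and not of molecules. Of the 6 genes with the highest counts, 4 encode PKA subunits. Prkar1a, the widely expressed type I regulatory subunit, had the highest count of the 43 genes with 2191 mean normalized counts and rank 451 of all genes. Prkar2a, a type II regulatory subunit that binds A-kinase anchoring proteins, had 1527 (rank 780). Prkar1b, a type I regulatory subunit found mainly in neurons, had 1037 (rank 1343). Prkar2b, the neuronal and adipose type II subunit, was the lowest of the 4 with 316. All 4 regulatory genes had 1 counted transcript.

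The catalytic subunit gene Prkaca had 1258 mean normalized counts (rank 1036), and Prkacb, which encodes the second main catalytic subunit, had 77.5. Since Prkacb had 4 counted transcripts and Prkaca 1, the order of these catalytic genes cannot be read from the table. For PKG, the kinase that cGMP activates, Prkg2 (the membrane-bound form) had 85.0 with 1 counted transcript and Prkg1 (the soluble form) had 64.3 with 2.

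The listed adenylyl cyclase genes, which leave out Adcy1, covered a wide range. Adcy6, whose enzyme is inhibited by calcium and by inhibitory G proteins, was the highest with 1124 mean normalized counts (rank 1227). Adcy5, its closest relative with the same type of regulation, had 287. Adcy2, stimulated by G protein beta-gamma subunits, had 453, and Adcy4, of the same subfamily, had 11.8. Adcy8, which calcium and calmodulin stimulate, had 239. Adcy9, a broadly expressed cyclase with low sensitivity to forskolin, had 185. These 6 genes had 1 counted transcript each. Adcy3, the main cyclase of olfactory neurons, had 0.181 with 3 counted transcripts, and Adcy7, the third beta-gamma-stimulated enzyme, had 0.0722 with 4. Summed over the 16 libraries the last pair came to 2.90 and 1.16 normalized counts, so nothing on their expression can be read at this level.

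Soluble guanylyl cyclase is an obligate dimer of an alpha and a beta subunit, of which the beta subunit carries the heme that binds nitric oxide. The alpha subunit gene Gucy1a3, now named Gucy1a1, had 1804 mean normalized counts (rank 608), the second highest count. The other alpha subunit gene, Gucy1a2, had 245. The beta subunit gene Gucy1b3, now named Gucy1b1, was listed at 0. Both alpha genes had 1 counted transcript, and the beta gene had the 2 transcripts described above with 60 bases not shared. A level of 0 for the partner of a gene at 1804 is a value of this table, and no absence of the beta subunit can be read from it.

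Among phosphodiesterases stimulated by calcium and calmodulin, Pde1b had 629 mean normalized counts with 1 counted transcript. Pde1c, with 8 counted transcripts, had 21.1 and Pde1a, with 4, had 5.65. PDE1 enzymes degrade both messengers and link calcium entry to their removal.

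The other phosphodiesterases that degrade both messengers differed widely. Pde3a, whose enzyme cGMP inhibits, had the highest count of the listed phosphodiesterase genes, which leave out PDE6, before length was considered, with 645. Pde3b, its relative known from fat and liver, had 47.0. Pde10a, known for its high level in the striatum, had 322, and Pde11a had 25.5. These 4 genes had 1 counted transcript each. Pde2a, whose enzyme cGMP stimulates, had 0.362 with 4 counted transcripts, which is 5.79 normalized counts summed over all libraries.

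Of the phosphodiesterases specific for cAMP, Pde8a had the highest count with 618 mean normalized counts and 1 counted transcript. Pde8b, of the same high-affinity family, had 89.4 with 2 counted transcripts. The PDE4 family, the target of rolipram, held a single gene above 100, Pde4d with 230. Pde4b had 18.8 with 5 counted transcripts and Pde4a had 18.2 with 2, values that differ by less than 1 normalized count. Pde4c, with 1 counted transcript, had 1.96 and was the lowest of the 27 genes of that kind. In the PDE7 family Pde7b had 163 with 1 counted transcript and Pde7a had 5.94 with 2. Of the phosphodiesterases specific for cGMP, Pde5a, the target of sildenafil, had 176 with 1 counted transcript and Pde9a was listed at 0 with 2.

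EPAC proteins carry cAMP signals independently of PKA by activating the small GTPase Rap. Rapgef4 (EPAC2), the form of neurons and endocrine cells, had 192 mean normalized counts with 1 counted transcript. Rapgef3 (EPAC1) was listed at 0 with 3. At the end of the PKA pathway, Crtc1, a coactivator that moves to the nucleus to join CREB, had 688 and Atf1, a relative of CREB, had 156, both with 1 counted transcript. Creb1 itself had 1.35 with 3 counted transcripts (21.5 normalized counts summed over all libraries) and Crem, whose gene makes both activators and repressors, had 0.0579 with 11 (0.927 summed).

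**Figure D3:**
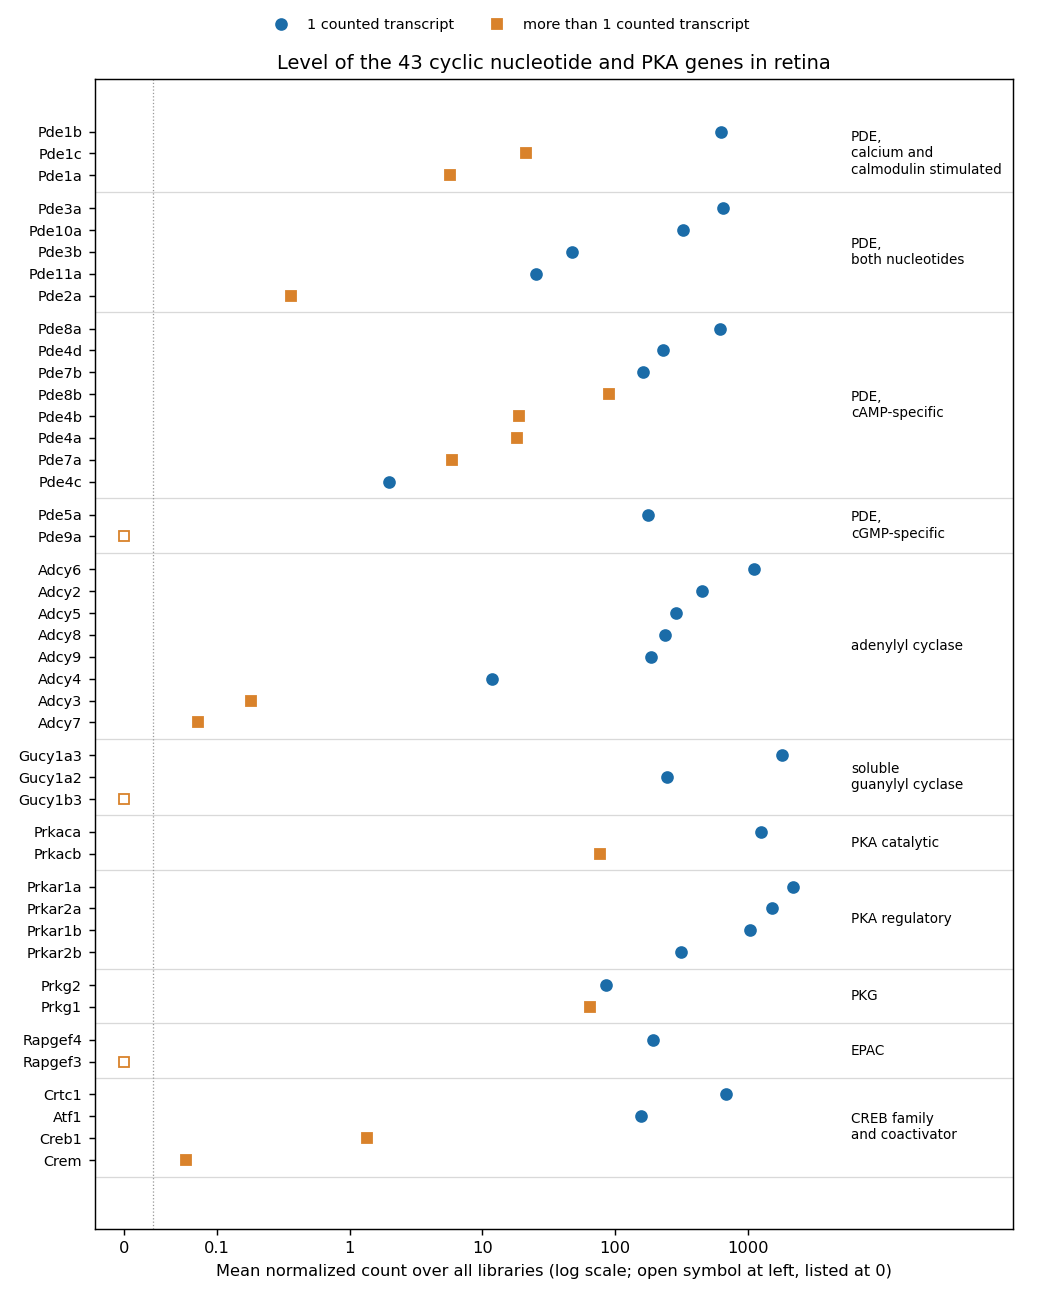
Mean normalized count of each of the 43 genes over all libraries, on a log scale with genes listed at 0 drawn as open symbols at the left of the dotted line, grouped by role. Circles are genes with 1 counted transcript and squares genes with more than 1; the 4 PKA regulatory genes lie between 316 and 2191, and Pde9a, Gucy1b3 and Rapgef3 are listed at 0.

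A long transcript gives more reads than a short one at the same number of molecules, so levels were also set per kilobase of the longest annotated transcript, for the 27 genes with 1 counted transcript only. The median of the 27 genes was 54.7 normalized counts per kilobase, with a range of 0.597 (Pde4c) to 624 (Prkar1a). Over the 13464 genes of the table with 1 counted transcript, a level above 0 and a length, the median was 40.9 and the quartiles were 4.34 and 125. Of the 27 cyclic nucleotide genes 18 were above that median and 8 above the upper quartile.

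The 5 highest genes per kilobase were Prkar1a at 624, Prkaca at 553, Prkar1b at 393, Gucy1a3 at 383 and Prkar2a at 307. Of the 13464 single-transcript genes with a level above 0 and a length, between 90.5% (Prkar2a) and 96.3% (Prkar1a) were lower than these. The same 5 genes led when the coding length or the counted transcript was used in place of the longest transcript, although their order differed. By coding length Prkar2a (1266) followed Prkar1a (1917) and stood ahead of Prkaca (1195). By the shortest annotated transcript, which for some genes is a partial model, the order was Gucy1a3, Prkar2a, Prkar1b, Adcy6 and Prkar1a, and Prkaca was the sixth. The values are given with no error, so neighbours such as Prkar1b and Gucy1a3 cannot be ranked.

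Among the regulatory subunits, Prkar1a made up 44.0% of the summed level per kilobase, Prkar1b 27.7%, Prkar2a 21.7% and Prkar2b 6.59%. The order depended on the length: by coding length Prkar2a (29.1%) passed Prkar1b (20.9%), and by the shortest transcript Prkar2a led with 38.4% and Prkar1a had 26.5%. Prkar2b was the lowest by each length. Among the 6 adenylyl cyclases with 1 counted transcript, Adcy6 made up 45.5% at 186 normalized counts per kilobase and Adcy2 26.3% at 108. Adcy5 (40.9 per kilobase), Adcy9 (37.2) and Adcy8 (34.3) lay close together and Adcy4 came last at 3.37. Adcy6 was the highest of the 6 by each of the 4 lengths tried, but by the shortest transcript its share was 90.7% and that of Adcy2 3.69%. These shares leave out Adcy3 and Adcy7, as well as Adcy1 and Adcy10, which are not among the 43 genes.

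Length changed the order of the phosphodiesterases. Pde3a, the highest of the listed genes by mean normalized count, has a longest transcript of 12302 bases and fell to 52.4 normalized counts per kilobase. Pde1b, with a longest transcript of 3258 bases, led with 193 per kilobase, followed by Pde8a with 163. Pde1b and Pde8a made up 33.3% and 28.0% of the summed level of the 10 phosphodiesterase genes with 1 counted transcript. The share of Pde8a was 19.97% by coding length and 7.32% by the shortest transcript. By the shortest transcript Pde10a rose from 7.15% to 31.6% and took the second place after Pde1b. Pde4d, with 14.5% by that length, was also above Pde8a. Pde4d (54.7), Pde10a (41.5) and Pde7b (39.3) were near the median of all such genes. Pde5a followed with 23.2, and Pde3b (7.16), Pde11a (6.08) and Pde4c (0.597) were the lowest. The level of Pde4d was 90.0 per kilobase when the counted transcript of 2554 bases was used in place of the longest of 4207.

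The remaining genes lay between these groups. Crtc1 had 121 normalized counts per kilobase, Gucy1a2 109, Prkar2b 93.5 and Atf1 65.8. Rapgef4 had 46.0 per kilobase, or 64.5 by its counted transcript, and Prkg2 had 17.1.

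**Figure D4:**
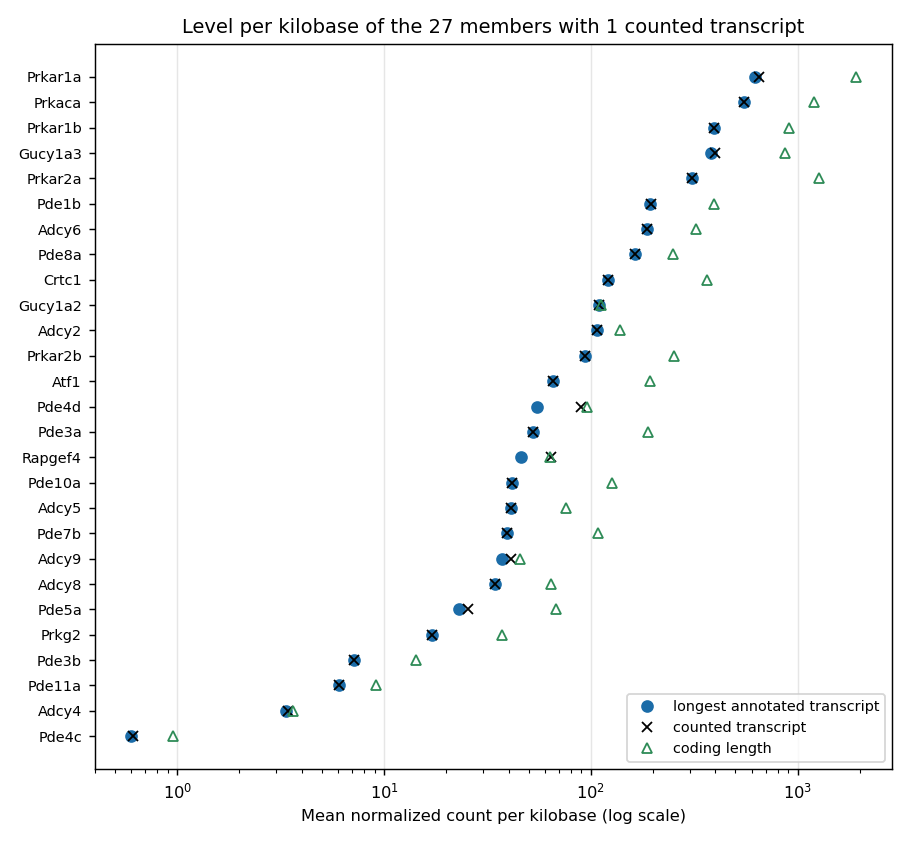
Mean normalized count per kilobase (log scale) of the 27 genes with 1 counted transcript, ordered by the value from the longest annotated transcript (circles), with the values from the counted transcript (crosses) and the coding length (triangles). Prkar1a is highest by all 3 lengths shown and Pde4c lowest, and the coding length raises each gene by a different amount.

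Other genes of the pathway were taken from a list of 44 that act around these enzymes. The 34 genes with 1 counted transcript had a median of 345 mean normalized counts and 24 (70.6%) were at or above 100. The 10 genes with more than 1 had a median of 3.62, and 1 of them was at or above 100 (Gnao1, an inhibitory G protein alpha subunit of neurons, at 3179 with 2 counted transcripts).

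The partners of PKA were represented on both sides of this split. Of the A-kinase anchoring proteins, which hold the regulatory subunits at sites in the cell, Akap9 had 3408, Akap11 3344, Akap6 2019, Akap12 1115 and Akap8 1020, each with 1 counted transcript, whereas Akap1 had 8.19 with 2 and Akap2 was listed at 0 with 3. Akap3, known from sperm, had 0.602 with 1 counted transcript. Of the inhibitor peptides of the catalytic subunit, Pkia had 624 with 1 counted transcript, Pkig 5.97 with 5 and Pkib was listed at 0 with 6. Gnas, which encodes the stimulatory G protein subunit upstream of all membrane adenylyl cyclases, had 80.8 with 9 counted transcripts. The CREB coactivators Ep300 and Crebbp had 2920 and 2887, each with 1 counted transcript.

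Promoter sequences were searched for the CRE because PKA signals to CREB at this motif. RefSeq windows on GRCm38.p6, from 250 bases before to 50 bases after each annotated start, were found for 35 of the 43 genes, with 74 windows in all. The CRE core was searched as TGACG or its reverse complement CGTCA, which covers both strands. The full palindrome TGACGTCA holds the core on both strands and counts under it. The core was found in 19 of the 74 windows (25.7%), against 20.8% of the 32851 windows of all genes. By gene it was found in 17 of 35 (48.6%) against 23.0% of 27025 genes, but the members have more windows per gene. The full palindrome was found in 2 windows (2.70%) against 1.79% of all windows, both of them of Prkar1a and over the same site. A comparison motif of another factor family, CACGTG, was found in 8.11% of the windows of members and 7.15% of all windows. By gene this comparison motif was also more frequent in members, at 17.1% against 8.09% of all genes.

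The core occurred in windows of Prkar1a, Prkar1b, Prkar2a, Prkaca and Prkacb. The sequence of 1 site per gene is shown because these are the subunits of the kinase that the pathway turns on. Prkaca has a second core at position -6. Further cores of Prkar1a lie at -151 and at -100 or -187, depending on the annotated start. Its full palindrome likewise lies at -49 from one annotated start and at 38, after the start, from another. The motif is in capitals, all other bases are in lower case, and each is written 5′ to 3′ on the strand of the gene.
Prkar1a, chr11:109650889-109650918, + strand, motif at position -49 from the start: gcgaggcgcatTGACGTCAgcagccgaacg
Prkar1b, chr5:139150034-139150062, - strand, position -49: tagagggcggagTGACGggcaggaggacg
Prkar2a, chr9:108692127-108692155, + strand, position -4: cgcggccgcgtgCGTCAcaacccgggcgc
Prkaca, chr8:83972846-83972874, + strand, position -120: gtctgcaactcgCGTCActcatccaggag
Prkacb, chr3:146813032-146813060, - strand, position -102: ggggcttgaccgCGTCActtccggcgcgc
Prkar1a is the only one of the 35 genes with the full palindrome in these windows. That is 2.86% of these genes against 2.03% of all genes, and any relation of the motif to the level was not tested. Prkacb, whose level of 77.5 rests on 4 counted transcripts, holds the core. No window of Prkar2b, the remaining PKA subunit gene, held the core. This grouping by PKA was chosen after the matches were seen.

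The core also occurred in windows of genes at other levels. Windows of 2 genes with 1 counted transcript are shown beside those of the kinase. Pde8a had the highest count of the listed cAMP-specific phosphodiesterase genes, several of which had more than 1 counted transcript. Atf1 is a factor of the CREB family that binds this motif itself.
Pde8a, chr7:81213169-81213197, + strand, position -84: gctgctttgcatTGACGccagcagccgct
Atf1, chr15:100227757-100227785, + strand, position -90: gtgaccacgcggTGACGcagcacgccggc
The other genes with the core were Adcy7, Adcy9, Gucy1a2, Gucy1b3, Pde1a, Pde2a, Pde4a, Pde4b, Pde8b and Rapgef3. In Gucy1a2 the core overlaps the comparison motif. The 17 genes thus run from 2 listed at 0 (Gucy1b3 and Rapgef3) to 2191 for Prkar1a. A match to these letters is a description of the window and not a site of binding.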

How the data were processed

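Total RNA of right-eye retinas was sequenced from 8 spaceflight and 8 ground control mice. The authors used Trimmomatic for trimming, TopHat2 for mapping to a mouse assembly that precedes GRCm38, and HTSeq for counts per RefSeq transcript (settings not given in the sources used here), and compared the groups with DESeq2 1.22.2 in R 3.5.1. The value used, unit signal, is the deposited DESeq2 mean, in which the authors scaled the counts of each library by its size factor. The table also holds the authors' log2 fold changes, standard errors, test statistics and p-values, which were not used. The 32 deposited columns of counts per library match no label and were not used. Library depth, the spread between libraries and the planned edgeR test between groups are therefore not analysed here, and the means are given with no error. Transcript identifiers of the count table gave the number of counted transcripts of any prefix per gene. The genes compared had at least 1 curated transcript (prefix NM). The 5 rows that name no gene were left out. The table of levels has 25905 symbols, of which 6238 are listed at 0, and 25 symbols that a spreadsheet turned into dates, of which 0 are members.

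Of the curated transcripts 96.0% were matched to GENCODE M21 by accession. The count of exon bases in exactly 1 counted transcript was tested on simulated loci. Scripts ran in Python 3.11.15 with pandas 2.3.3, numpy 2.4.6 and matplotlib 3.10.9. The members and lists were chosen with earlier results of these data known, and all 43 members are named. Values of single genes of the marker and pathway lists are given for some genes only, and the others are not reported here. Levels of at least 1 were taken as detected. Alternatives were other lengths, other minimum levels, another reference set for ranks and the full CRE. No test was made.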

Additional observations from a re-analysis of the deposited data

How the results depend on the processing

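Of the 43 genes 36 were at or above a mean normalized count of 1, 32 at or above 10 and 22 at or above 100. Of the 20125 genes with a curated transcript, 13814, 11265 and 7590 reached the same levels. The share at or above 100 was 51.2% of the 43 genes and 37.7% of all these genes. The median level per kilobase of the 27 genes with 1 counted transcript was 54.7 by the longest annotated transcript, 65.8 by the counted transcript, 118 by the shortest annotated transcript and 126 by the coding length. The shortest transcripts include short partial models, such as one of 459 bases for Pde10a. A gene with the CRE core was found 17 times and with the full palindrome 1 time. The median percentage of genes below the members was 66.8% among all genes above 0 and 47.2% among genes at or above 10. Exon bases in exactly 1 transcript had a median of 2222 whether transcripts of the same strand or of either strand were counted. The length of the counted transcript, the members with 1 counted transcript and the strand were added after seeing the data.

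The edgeR comparison of spaceflight with ground control, its alternatives (DESeq2, no filter on low counts, a stricter threshold, the replicate block) and fits without 1 library were not run, because the count columns match no mouse. No paired analysis was possible because the columns carry no replicate number of the labels.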

Other observations

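The number of curated transcripts of a gene differs between annotations. Of the 27 genes with 1 counted transcript, 14 have more than 1 curated transcript in a newer RefSeq annotation. Among them are Prkar1a with 8, Prkar1b with 7 and Rapgef4 with 5. The levels of these 14 genes were counted on a single transcript here, and how they would be counted with the newer set was not tested.

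Some marker genes of retinal cell types with more than 1 counted transcript had low levels. These pairs were chosen after their values were seen. Nrl, the rod transcription factor, had 88.9 with 2 counted transcripts, while the rod marker Pde6b had 13374 with 1. Rlbp1, a marker of Müller glia, had 1.39 with 2, while Glul had 17455 with 1. Rbpms, a ganglion cell marker, had 5.53 with 3, while Thy1 had 1730 with 1. Pecam1, an endothelial marker, had 0.446 with 2, while Cdh5 had 99.5 with 1. Markers with 1 counted transcript were low as well in some lists, such as Best1 of pigment epithelium with 2.72, Aif1 of microglia with 4.08 and Lhx1 of horizontal cells with 47.7, each below the level of Nrl.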
